A study of Sus scrofa with 9 samples.

Results

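The 80 genes described here are those whose mean FPKM (fragments counted per kilobase of transcript and scaled to library depth, a level that can be compared between genes) was at least 1.5 times the control mean both with sulforaphane and with follicle-stimulating hormone (FSH). They were taken from the 1081 rows of the deposited table by the means of the 3 libraries of each group, with the highest of the 3 means at 1 FPKM or more. The same thresholds were met by 28 further genes, which were left out by symbol (solute carriers, ABC transporters, a potassium channel, ZNF and KLF zinc finger genes, GSTA1 and GSTA4, and single genes such as NQO1 and VEGFA). The measurements come from 3 libraries each of wild-type primary granulosa cells of pig ovary treated with sulforaphane, of the same kind of cells treated with FSH, and of control cells. The labels state no dose, duration or vehicle and do not tell if the replicate libraries had separate donors or dishes, so p-values measure only the spread between these samples, which may be technical. Because the choice used both treatments' means against control, values and calls against control are given as a description, and the tests of single genes are of sulforaphane against FSH.

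Granulosa cells surround the oocyte and feed it through gap junctions, and FSH, acting through a receptor coupled to cyclic AMP and protein kinase A, drives their growth and steroid synthesis. Sulforaphane is an electrophile released from broccoli and related plants. It modifies the sensor protein KEAP1, which frees the transcription factor NRF2 to switch on genes of glutathione metabolism and of the detoxification of reactive compounds. A hormone and a plant electrophile thus reach the nucleus by separate known routes, and the genes described here are the ones whose levels stood higher with both.

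Library depth, estimated from counts and FPKM together, ranged from 16.6 to 22.3 in units of 1e6 fragments, and the table held 6.72% to 8.38% of it. Of 919 tested genes, 315 (34.3%) were called higher with sulforaphane than in control and 508 (55.3%) higher with FSH than in control, by edgeR's quasi-likelihood test at a Benjamini-Hochberg adjusted p under 0.05. Only 4 and 19 of the tested genes were called neither way in those comparisons, so such shares describe the rows deposited and not the transcriptome. All 77 tested genes of the set were called higher in both comparisons, which their choice by the same means made likely, and nothing is read from that. Of 18 granulosa markers 7 were in the table, and their summed level was 712 to 790 FPKM with sulforaphane, 1306 to 1419 FPKM with FSH and 530 to 559 FPKM in control cells. Most of that sum with sulforaphane was GJA1, at 498 to 652 FPKM with sulforaphane, 599 to 622 FPKM with FSH and 320 to 325 FPKM in control cells. For INHBA, AMHR2, HSD17B1 and CYP11A1 every sulforaphane library lay below every control library. For GJA1, FST and KITLG every sulforaphane library lay above every control library. The receptor FSHR and the markers CYP19A1, AMH and FOXL2 are not analysed here. The 5 smooth muscle markers in the table, mostly ACTA2, summed to 2314 to 2529 FPKM with sulforaphane, 3058 to 3122 FPKM with FSH and 7283 to 7581 FPKM in control cells. In ACTA2, MYH11, DES and LMOD1 every treated library lay below every control library. CNN1 ran against the sum with FSH. Its level was 37 to 47.7 FPKM with sulforaphane, 140 to 155 FPKM with FSH and 93.6 to 99.6 FPKM in control cells. The 3 fibroblast markers summed to 44.3 to 52 FPKM with sulforaphane, 56.9 to 60.6 FPKM with FSH and 85.4 to 91.6 FPKM in control cells, and the 3 surface epithelium markers to 39.4 to 46.5 FPKM with sulforaphane, 89.4 to 95.3 FPKM with FSH and 154 to 157 FPKM in control cells. COL1A1 made up most of the fibroblast sum, and PDGFRB ran against it, at 11.2 to 15.3 FPKM with sulforaphane, 6.3 to 6.92 FPKM with FSH and 8.9 to 10.2 FPKM in control cells. The pair of theca markers in the table, CYP11A1 and LHCGR, summed to 74.9 to 137 FPKM with sulforaphane, 530 to 611 FPKM with FSH and 139 to 166 FPKM in control cells. Leukocyte, oocyte and erythroid markers are not analysed here. Fewer cells of a type and less RNA per cell cannot be told apart in such bulk samples, and the part that a shift in cell types had in the values below was not tested.

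Against the control mean, the 80 genes stood at a median of 1.96 times with sulforaphane (range 1.5 to 15) and 2.03 times with FSH (lowest 1.5). Ratios of at least 5 were seen in 5 genes with sulforaphane and in 14 with FSH. Their levels were modest: the median of the mean levels was 4.17 FPKM with sulforaphane, 4.41 FPKM with FSH and 1.83 FPKM in control cells, where the tested genes of the table had 4.69 FPKM with sulforaphane, 5.89 FPKM with FSH and 5.47 FPKM in control cells. A mean under 1 FPKM was found for 8 of the 80 with sulforaphane, for 3 with FSH and for 25 in control cells. Every sulforaphane library lay above every control library in 77 genes, the exceptions being RSPO2, MRO and PLXNC1, and every FSH library lay above every control library in all 80. In 28 genes the lowest library of each treatment was at least 1.5 times the highest control library. The spread between sulforaphane libraries was the widest of the groups, with a median coefficient of variation of 16.1%, against 6.8% between FSH libraries and 11.1% between control libraries. Over all tested genes the same medians were 15% with sulforaphane, 5.89% with FSH and 7.45% in control cells. The third sulforaphane library was the highest of its group for 58.8% of the set and for 56% of tested genes, and without it 17 of the 80 no longer met the thresholds (among them ADD2, AKR1C1, AKR1CL1, CBS, Cd24, DACH1, DYNC1I1, FNDC3A, KDR, LIPH, LOC110256218, MRO, PHEX, PLXNC1, RAB27B and SHROOM2). The thresholds were met by 50 genes whichever of the 9 libraries was left out.

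**Figure D1:**
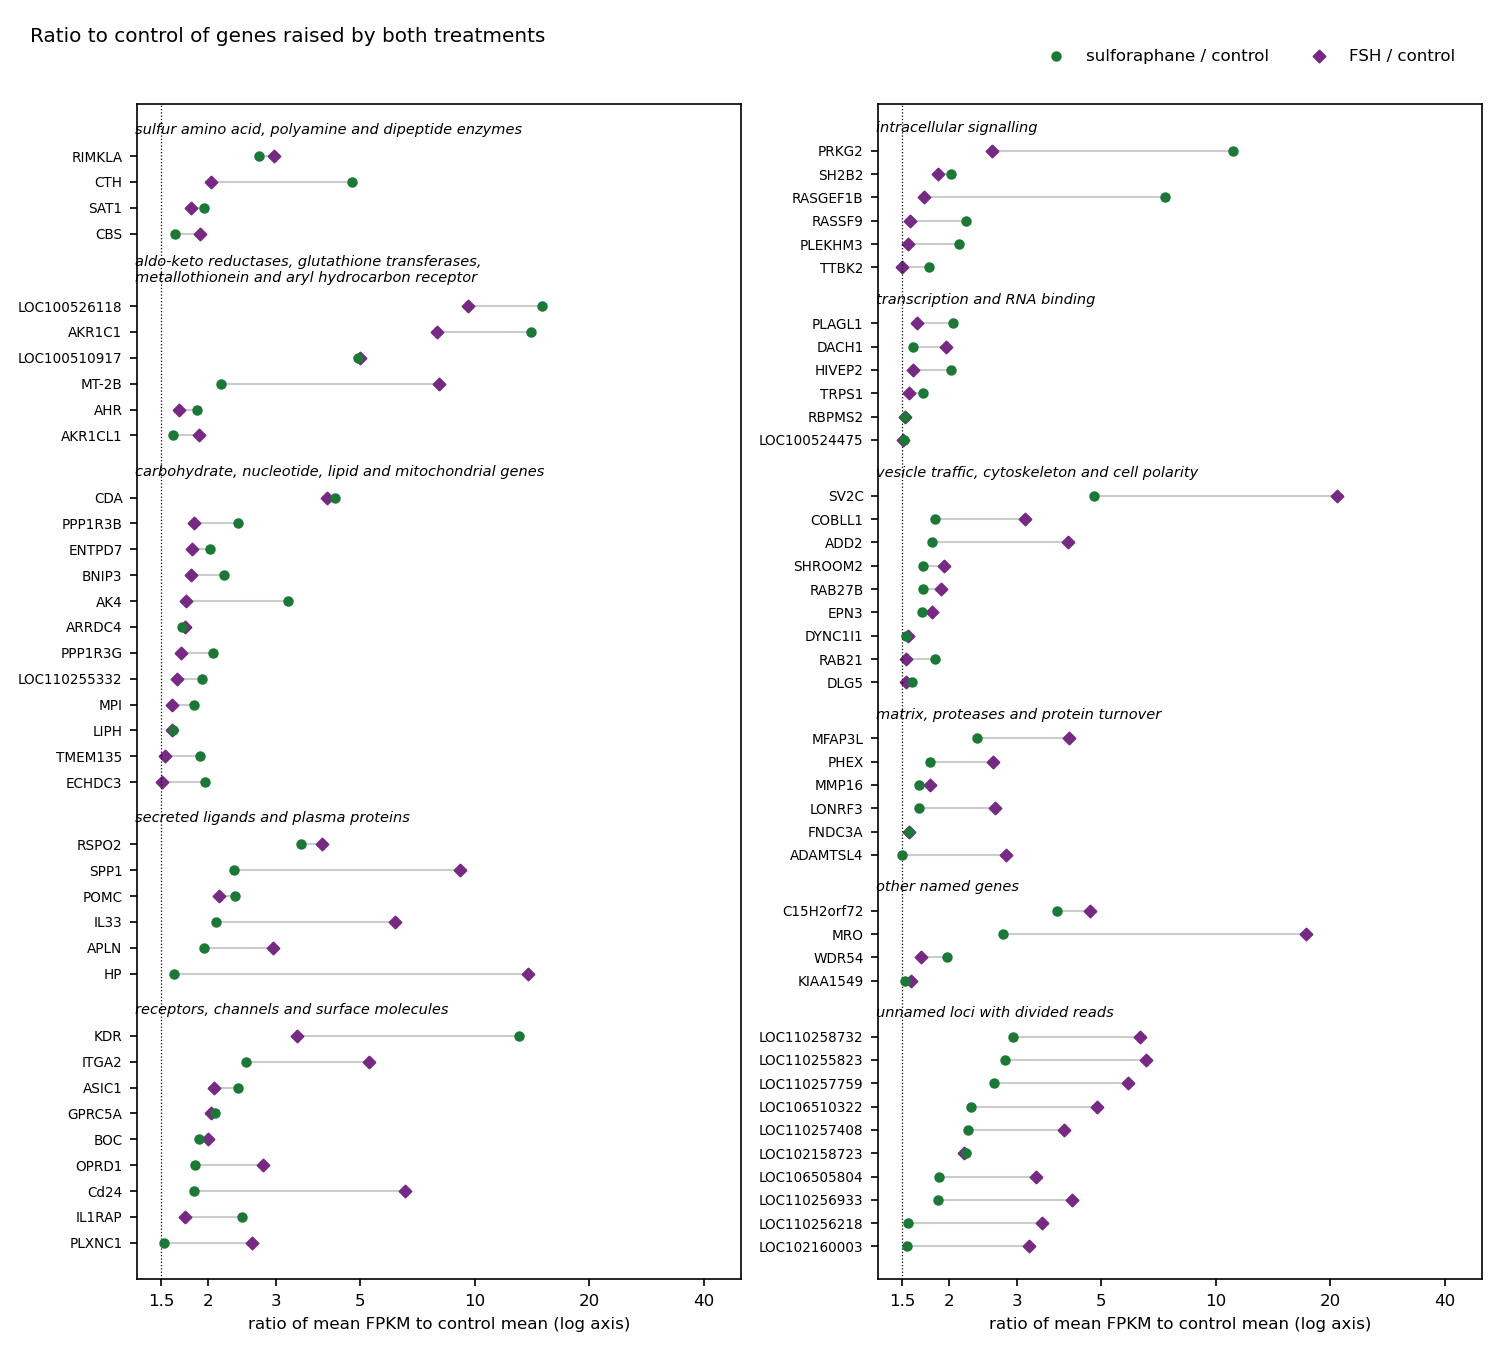
Ratio of mean FPKM to the control mean (log axis) for 78 of the 80 genes, grouped by role, with sulforaphane as green circles and FSH as purple diamonds; the dotted line marks 1.5. In 47 of the 78 genes both ratios lie under 3, while FSH reaches 20.9 for SV2C and sulforaphane 15 for LOC100526118.

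Among the genes nearest the 1.5-fold limit were TTBK2 and ADAMTSL4 on the inside and HSPA13, RAB3B and DHRS1 on the outside. TTBK2 stood at 1.77 times control with sulforaphane and 1.5 times with FSH, and ADAMTSL4 at 1.5 times with sulforaphane and 2.82 times with FSH. HSPA13 missed the limit with FSH at 1.4965 times (1.67 times with sulforaphane). RAB3B also missed it with FSH at 1.49 times, although it stood at 3.57 times control with sulforaphane, and DHRS1 missed it with sulforaphane at 1.49 times (1.56 times with FSH).

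The rule set no limit on sulforaphane against FSH, but both means entered it, so the choice of genes can move their ratio. Shares of the set are given beside those of the table as a description, and nothing particular to the set is read from them. Of the 77 genes that passed a filter of 1 FPKM in at least 3 of 9 libraries, 14 (18.2%) were higher with sulforaphane than with FSH, 27 (35.1%) were lower, and 36 did not pass. Among all 919 tested genes, 119 (12.9%) were higher and 393 (42.8%) were lower. The 36 genes that did not pass had estimated log2 fold changes between -0.29 and 0.39, but their 95% intervals were wider, reaching -0.98 to 1.09 for CDA, so equal levels are not shown. Library by library over the 80 genes, every sulforaphane library lay above every FSH library in 20, where 15.1% of tested genes did so, and every FSH library lay above every sulforaphane library in 29, where 44.3% of tested genes did so; the remaining 31 overlapped. Of the 77, 4 genes, MRO, PLXNC1 and SV2C among them, reached 1 FPKM in FSH libraries only and PRKG2 in sulforaphane libraries only, so that these 5 could enter the test only through the group where they are high. The other 72 hold 13 higher, 23 lower and 36 that did not pass. Some of the 23 still needed their FSH libraries to have 3 at 1 FPKM, among them ADD2, PHEX and LOC110258732. The 72 are thus not free of this limit. RSPO2, KDR and AKR1C1 did not pass the filter and are described by their values.

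The split between higher and lower depended on the scaling. With library depth as the scale, the median log2 fold change of sulforaphane against FSH was -0.03 in the 77 genes and -0.18 over all tested genes. With TMM factors the medians were 0.27 and 0.12, and 28 of the 77 were higher and 24 lower (320 and 327 of all tested genes). With median-ratio factors the medians were 0.34 and 0.19, and 38 of the 77 were higher and 21 lower (388 and 315 of all tested genes). The calls lost among the lower genes with median-ratio factors were those of PHEX, OPRD1, APLN, LONRF3, PLXNC1 and MFAP3L. Calls also moved with single libraries: 8 genes were higher without the first FSH library and 9 without the second. With 3 libraries against 3, an exact two-sided permutation test of a single gene cannot give a p below 0.1, so the tests below come from the fit across all genes (edgeR quasi-likelihood, Benjamini-Hochberg adjustment over 919 genes), with log2 fold changes of sulforaphane over FSH given ± SE.

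**Figure D2:**
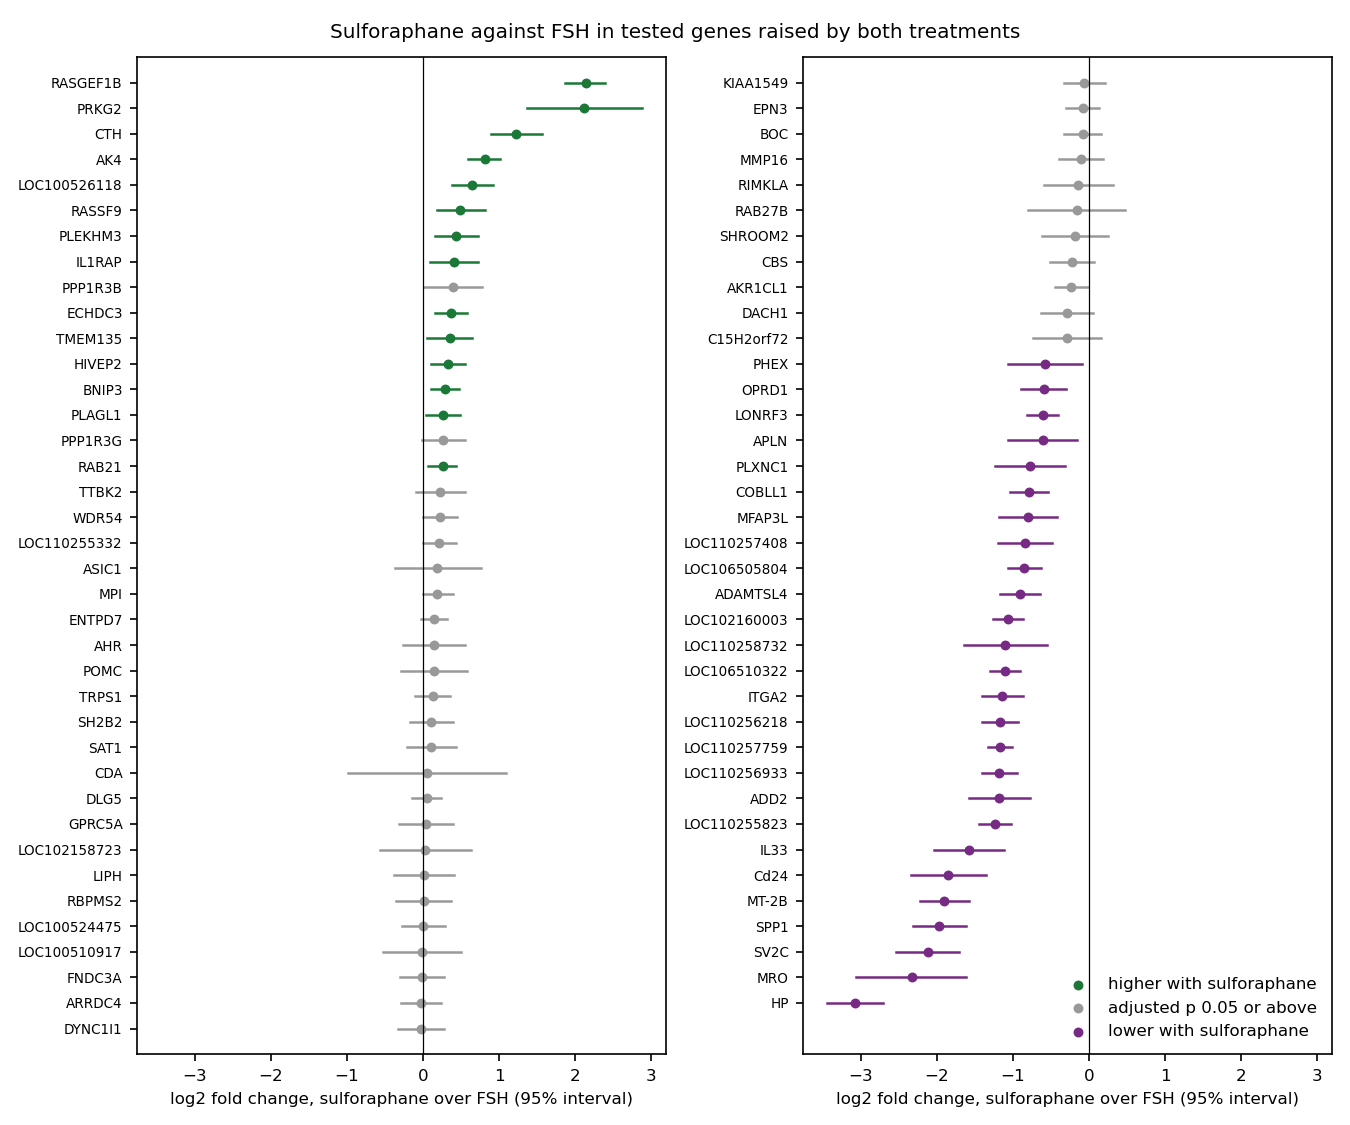
Log2 fold change of sulforaphane over FSH with its 95% interval for 75 of the 77 tested genes, in order of size; green marks genes higher with sulforaphane, purple genes lower, grey an adjusted p of 0.05 or above. The values run from 2.14 for RASGEF1B to -3.07 for HP, and 35 intervals belong to genes that did not pass.

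Enzymes that handle electrophiles and other foreign compounds held the highest ratio to control with sulforaphane and the highest level of the whole set. LOC100526118, annotated as glutathione S-transferase A1-like (chr7:46571106-46588139), an enzyme that joins glutathione to electrophiles, had 17.3, 17.9 and 22.8 FPKM with sulforaphane, 12.3, 12 and 12.7 FPKM with FSH and 1.19, 1.45 and 1.21 FPKM in control cells. It stood at 15 times control with sulforaphane and 9.59 times with FSH, and all sulforaphane libraries lay above all FSH libraries (log2 fold change 0.65 ± 0.125, edgeR adjusted p = 0.000553). Its counts were fractional in 8 libraries, as when reads are divided between loci, and how the fractions arose was not tested. LOC100510917, annotated as glutathione S-transferase A4 and lying 22327 bases away on the same chromosome, had 1.75, 1.58 and 2.65 FPKM with sulforaphane, 1.93, 2.24 and 1.87 FPKM with FSH and 0.5, 0.36 and 0.35 FPKM in control cells. Its treated groups overlapped (log2 fold change -0.01 ± 0.236, edgeR adjusted p = 0.973), and with quantile scaling its direction turned (log2 fold change 0.35). Values and calls with quantile scaling, here and below, come from limma on log2(FPKM + 1), so their sizes do not compare directly with edgeR's. From summed counts the ratio of LOC100510917 to control was 4.94 with sulforaphane (exact 95% interval 3.18 to 7.94) and 4.97 with FSH (3.22 to 7.99).

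A pair of neighbouring aldo-keto reductase genes on chromosome 10, 7405 bases apart, differed far in level. AKR1CL1 (chr10:65559508-65572892) had 1472, 1353 and 1818 FPKM with sulforaphane, 1846, 1813 and 1764 FPKM with FSH and 943, 1037 and 901 FPKM in control cells, the highest levels in the set. All control libraries lay below all treated ones, and the third sulforaphane library fell among the FSH libraries (log2 fold change -0.23 ± 0.0973, edgeR adjusted p = 0.0673); without that library AKR1CL1 was called lower with sulforaphane (log2 fold change -0.36). AKR1C1 (chr10:65580297-65594998), whose human counterpart inactivates progesterone, was near the limit of detection, with 15, 19 and 48 counts with sulforaphane, 12, 18 and 18 with FSH and 1, 2 and 3 in control cells. From the summed counts its ratio to control was 14.4 with sulforaphane (exact 95% interval 6.35 to 40.4) and 8.16 with FSH (3.48 to 23.3), intervals that cover counting error only. Both genes carried whole counts in every library. Among 13 tested genes of a list of 57 NRF2 targets, 9 were higher with sulforaphane than with FSH and 2 lower, with a median log2 fold change of 2.49. Over all tested genes 12.9% were higher and 42.8% lower. By symbol AKR1C1 is the list's one member here, and its other genes that met the thresholds were left out by symbol. Lists were matched by symbol only, so LOC100526118 and LOC100510917 were not counted on this one, whatever their glutathione S-transferase annotation.

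The metallothionein gene was lower with sulforaphane than with FSH. MT-2B, described in the file as metallothionein-2A, a small protein that binds zinc and copper, had 15.6, 20.2 and 24.4 FPKM with sulforaphane, 83.3, 73 and 68.4 FPKM with FSH and 9.75, 9.14 and 8.99 FPKM in control cells. Each group stood apart from the others, and the level with FSH was 3.73 times that with sulforaphane (log2 fold change -1.90 ± 0.149, edgeR adjusted p = 1.99e-07). AHR, the receptor that turns on genes of xenobiotic metabolism after binding aromatic compounds, had 3.01, 3.75 and 5.71 FPKM with sulforaphane, 3.73, 3.78 and 3.73 FPKM with FSH and 1.99, 2.5 and 2.21 FPKM in control cells. Its sulforaphane libraries spread widely around the tight FSH values (log2 fold change 0.15 ± 0.188, edgeR adjusted p = 0.553).

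Of the genes of sulfur amino acid breakdown, cystathionine gamma-lyase set the treatments apart and cystathionine beta-synthase did not. CTH, which releases cysteine, the amino acid that limits glutathione synthesis, had 14.9, 15.3 and 21.7 FPKM with sulforaphane, 7.68, 8.06 and 6.4 FPKM with FSH and 3.4, 4.08 and 3.42 FPKM in control cells. No libraries overlapped between any of the groups, and the level was 2.35 times higher with sulforaphane than with FSH (log2 fold change 1.23 ± 0.156, edgeR adjusted p = 1.48e-05). CBS, the enzyme that makes the substrate of CTH from homocysteine and serine, had 6.94, 5.86 and 8.26 FPKM with sulforaphane, 8.59, 7.89 and 8.05 FPKM with FSH and 3.88, 4.81 and 4.2 FPKM in control cells. Its treated libraries overlapped (log2 fold change -0.22 ± 0.132, edgeR adjusted p = 0.186), although without the third sulforaphane library CBS was called lower with sulforaphane (log2 fold change -0.35). The file's annotation puts 3 tested genes in cysteine and methionine metabolism, and CTH and CBS are 2 of them. On a list of stress response genes, 9 were tested, 4 of them higher with sulforaphane than with FSH and 1 lower (median log2 fold change -0.14), and CTH and CBS are the members in the set. Over all tested genes 12.9% were higher and 42.8% lower. SAT1, which acetylates spermidine and spermine and so sends polyamines to export or breakdown, had 21.5, 21.6 and 26.5 FPKM with sulforaphane, 23.3, 20.5 and 20.4 FPKM with FSH and 9.9, 14.6 and 11.2 FPKM in control cells. The treated libraries of SAT1 lay together and above all control libraries (log2 fold change 0.11 ± 0.149, edgeR adjusted p = 0.565). RIMKLA, a synthetase of N-acetylaspartylglutamate, stood at 2.71 times control with sulforaphane and 2.96 times with FSH, at about 1 FPKM in both, and its direction between the treatments turned under quantile scaling (log2 fold change -0.14 by depth and 0.35 with that scaling).

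Among 12 genes of carbohydrate, nucleotide, lipid and mitochondrial metabolism, 4 were higher with sulforaphane than with FSH and none lower, with a median log2 fold change of 0.24, where 12.9% of all tested genes were higher and 42.8% lower. The count of higher genes was 10 with TMM factors, 11 with median-ratio factors and 9 with quantile scaling. Over all 919 tested genes it was 320, 388 and 399 in the same order. AK4, an adenylate kinase of the mitochondrial matrix known to rise in hypoxia, had 45.3, 51.8 and 53.5 FPKM with sulforaphane, 26.9, 27.3 and 26.9 FPKM with FSH and 17.1, 12.8 and 16.6 FPKM in control cells. Its 3 groups stood well apart and the FSH libraries were almost alike (log2 fold change 0.81 ± 0.0985, edgeR adjusted p = 1.08e-05). BNIP3, a mitophagy receptor of the outer mitochondrial membrane, had 291, 289 and 284 FPKM with sulforaphane, 239, 222 and 244 FPKM with FSH and 142, 117 and 133 FPKM in control cells. It was a small difference between tight groups (log2 fold change 0.29 ± 0.0842, edgeR adjusted p = 0.00952), which did not pass without the second FSH library (log2 fold change 0.25). ECHDC3, a member of the enoyl-CoA hydratase family, had 9.17, 8.11 and 7.54 FPKM with sulforaphane, 6.29, 6.33 and 6.56 FPKM with FSH and 4.46, 4.02 and 4.22 FPKM in control cells. Again all libraries of the treated groups were separate (log2 fold change 0.37 ± 0.0962, edgeR adjusted p = 0.00479). TMEM135, a protein tied to peroxisomes and mitochondria in mouse, was the fourth gene called higher (log2 fold change 0.35 ± 0.133, edgeR adjusted p = 0.0421), a call that was lost in 7 of the 9 fits that leave out 1 library.

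MPI, which interconverts mannose and fructose phosphates, had 37.5, 36.4 and 36.1 FPKM with sulforaphane, 32.9, 32.4 and 31 FPKM with FSH and 22.4, 18.9 and 18.7 FPKM in control cells. Each sulforaphane library exceeded each FSH library by a little (log2 fold change 0.19 ± 0.0899, edgeR adjusted p = 0.0909). PPP1R3B, a subunit that brings protein phosphatase 1 to glycogen, had 1.38, 1.58 and 1.2 FPKM with sulforaphane, 1.13, 0.97 and 1.08 FPKM with FSH and 0.74, 0.43 and 0.57 FPKM in control cells. Here too the treated groups did not overlap, without passing the test (log2 fold change 0.39 ± 0.178, edgeR adjusted p = 0.0817). The related glycogen subunit PPP1R3G had a log2 fold change of 0.27, the nucleotidase gene ENTPD7 one of 0.15 and LOC110255332, an acyl-coenzyme A thioesterase 4-like gene, one of 0.21, and none of them passed. ARRDC4, an arrestin-domain protein that curbs glucose uptake, had 13.2, 15.1 and 19.8 FPKM with sulforaphane, 16.2, 16.4 and 16.3 FPKM with FSH and 9.52, 9.53 and 9.16 FPKM in control cells. The FSH libraries sat inside the range of the sulforaphane libraries (log2 fold change -0.03 ± 0.124, edgeR adjusted p = 0.887), and the sign turned with TMM factors (log2 fold change 0.27). CDA, which deaminates cytidine, was counted 16, 14 and 21 times with sulforaphane, 16, 13 and 22 times with FSH and 2, 0 and 10 times in control cells. Its mean level was 1.87 ± 0.443 FPKM with sulforaphane, 1.78 ± 0.2 FPKM with FSH and 0.433 ± 0.571 FPKM in control cells (SD, n = 3 each). The treated libraries lay together, and the control libraries were too sparse for a firm ratio (4.48 with sulforaphane, exact 95% interval 2.36 to 9.24, and 4.33 with FSH, 2.28 to 8.93, from summed counts). LIPH, a lipase that makes lysophosphatidic acid, was at 1.62 times control with sulforaphane and 1.60 times with FSH. On a list of glycolysis and hypoxia genes, 16 were tested, of which 5 were higher with sulforaphane than with FSH and 1 lower (median 0.15), with BNIP3 the one member after the exclusions by symbol.

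Of 5 tested genes for secreted proteins, 4 were lower with sulforaphane than with FSH and none higher, with a median log2 fold change of -1.58, where 42.8% of all tested genes were lower. With TMM factors, median-ratio factors or quantile scaling 3 were lower, where 327, 315 and 302 of all 919 tested genes were. HP, haptoglobin, the plasma protein that binds free haemoglobin, had 1.9, 2.16 and 1.46 FPKM with sulforaphane, 14, 18.3 and 14.7 FPKM with FSH and 1.05, 1.11 and 1.25 FPKM in control cells. The sulforaphane libraries were close to control, whereas all FSH libraries were far above both, an 8.42-fold difference between the treatments (log2 fold change -3.07 ± 0.168, edgeR adjusted p = 1.02e-08). SPP1, osteopontin, a phosphoprotein that cells bind through integrins, had 3.8, 4.79 and 2.97 FPKM with sulforaphane, 15.7, 13.7 and 15.8 FPKM with FSH and 1.46, 1.7 and 1.79 FPKM in control cells. Its groups were all separate, with FSH on top (log2 fold change -1.97 ± 0.159, edgeR adjusted p = 2.67e-07). IL33, an alarmin cytokine of the interleukin 1 family, had 7.31, 7.57 and 12.5 FPKM with sulforaphane, 24.8, 30.5 and 25.7 FPKM with FSH and 3.56, 5.6 and 3.97 FPKM in control cells. The third sulforaphane library was the highest of its group, yet it remained below every FSH library (log2 fold change -1.58 ± 0.21, edgeR adjusted p = 2.21e-05).

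APLN, apelin, the ligand of the apelin receptor, stood at 1.94 times control with sulforaphane and 2.95 times with FSH (log2 fold change -0.61 ± 0.205, edgeR adjusted p = 0.0223), a call that was lost without the first or the third FSH library, with TMM factors (log2 fold change -0.30) and with median-ratio factors (-0.23). Under quantile scaling its sign turned (0.02). POMC, the precursor of corticotropin, melanocortins and beta-endorphin, had 3.52, 3.36 and 3.29 FPKM with sulforaphane, 3.62, 2.9 and 2.69 FPKM with FSH and 0.99, 1.67 and 1.66 FPKM in control cells. Its treated libraries overlapped and all lay above control (log2 fold change 0.14 ± 0.198, edgeR adjusted p = 0.589), and with median-ratio factors POMC was called higher with sulforaphane (log2 fold change 0.52). RSPO2, a secreted protein that enhances Wnt signalling, was counted 12, 6 and 17 times with sulforaphane, 7, 12 and 24 times with FSH and 2, 7 and 2 times in control cells. A control library therefore reached into the range of the sulforaphane libraries, and the summed counts gave 3.36 times control with sulforaphane (exact 95% interval 1.67 to 7.33) and 3.98 times with FSH (2.02 to 8.57). Over a list of secreted ligands and binding proteins, 29 were tested, of which 5 were higher with sulforaphane than with FSH and 14 lower (median -0.27), and IL33, SPP1, POMC and RSPO2 are its members here.

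**Figure D3:**
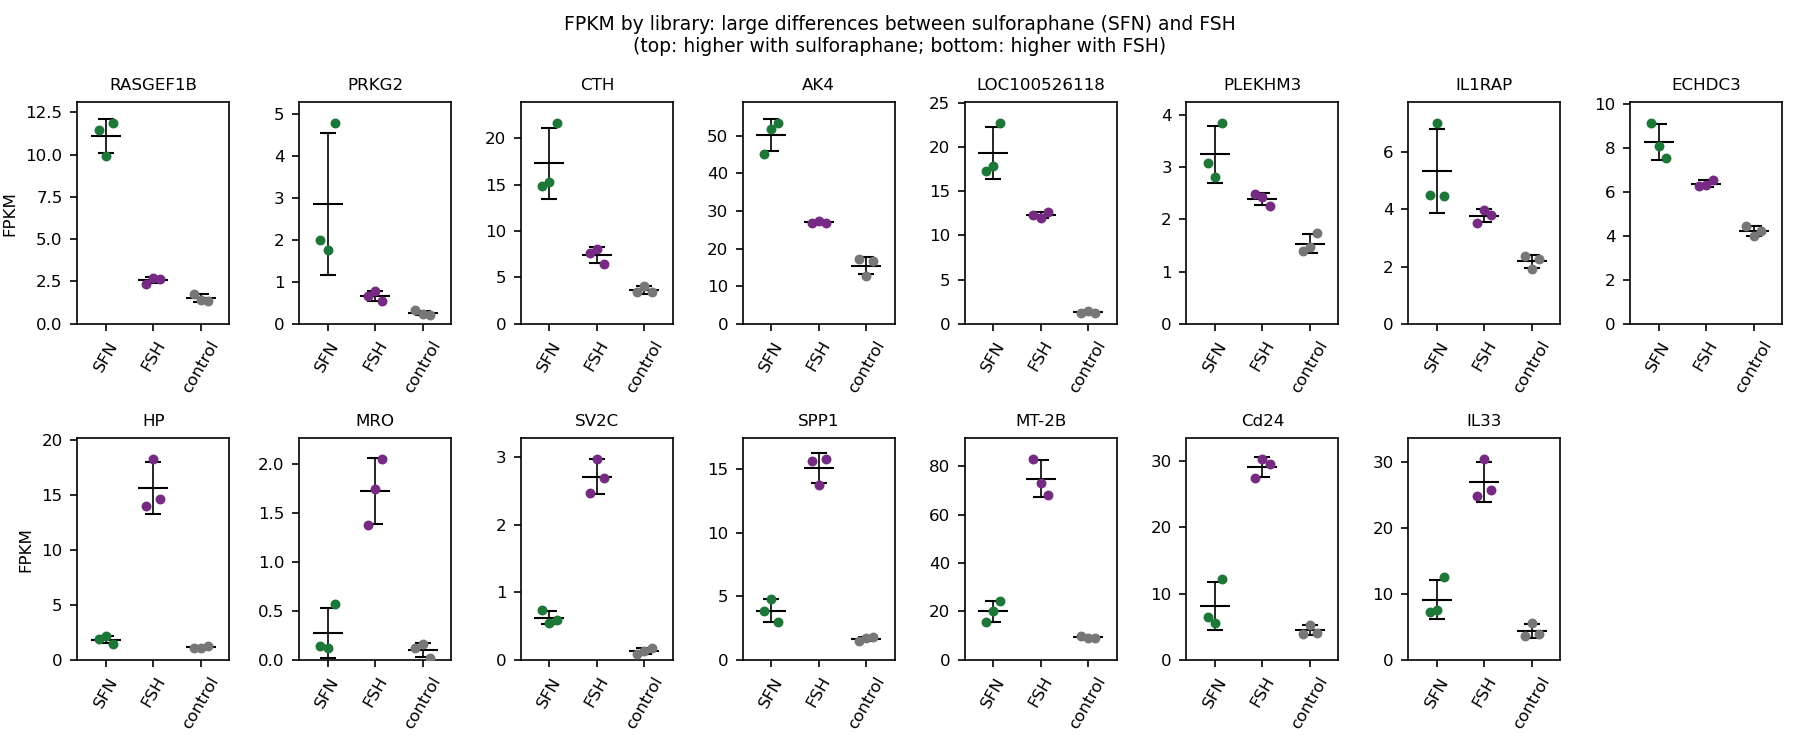
FPKM in each library of 15 genes with large differences between sulforaphane (SFN, green) and FSH (purple) whose treated libraries do not overlap, with control in grey; the line and bars give mean ± SD of 3 libraries and each panel has its own axis. The top row shows genes higher with sulforaphane, led by RASGEF1B, and the bottom row genes higher with FSH, led by HP.

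Of 8 tested genes for receptors, channels and other surface molecules, 1 was higher with sulforaphane than with FSH and 4 were lower, where 12.9% of all tested genes were higher and 42.8% lower. With median-ratio factors or quantile scaling 4 were higher and 2 lower. Over all 919 tested genes the counts were 388 and 315 with median-ratio factors and 399 and 302 with quantile scaling. IL1RAP, the co-receptor through which the receptors of interleukin 1 and interleukin 33 signal, had 4.52, 7.04 and 4.46 FPKM with sulforaphane, 3.53, 3.99 and 3.82 FPKM with FSH and 2.36, 1.92 and 2.26 FPKM in control cells. Sulforaphane libraries lay above FSH libraries (log2 fold change 0.41 ± 0.146, edgeR adjusted p = 0.0303), but the call was lost without the second sulforaphane library, which was the highest, and without any one of the FSH libraries. The ligand gene IL33 was lower and its co-receptor gene IL1RAP higher with sulforaphane than with FSH. KDR, the main signalling receptor for VEGF, was counted 107, 100 and 181 times with sulforaphane, 39, 25 and 42 times with FSH and 9, 11 and 11 times in control cells. The groups did not overlap, and its mean level was 1.17 ± 0.434 FPKM with sulforaphane, 0.307 ± 0.0551 FPKM with FSH and 0.09 ± 0.01 FPKM in control cells (SD, n = 3 each). KDR was the one endothelial marker in the table, the other 7 are not analysed here, and the part that endothelial cells had in its level was not tested. ITGA2, the collagen-binding alpha subunit of an integrin, had 4.44, 5.16 and 4.11 FPKM with sulforaphane, 9.11, 9.74 and 10.1 FPKM with FSH and 1.38, 2.22 and 1.86 FPKM in control cells. With FSH it was 2.2 times as high as with sulforaphane, without overlap (log2 fold change -1.14 ± 0.123, edgeR adjusted p = 3.46e-06), and its counts were fractional in all 9 libraries.

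Cd24, an assembled locus without a gene identifier that the file describes as like the signal transducer CD24 of a baboon, had 6.49, 5.59 and 12.3 FPKM with sulforaphane, 27.5, 30.4 and 29.5 FPKM with FSH and 3.96, 5.31 and 4.02 FPKM in control cells. FSH libraries were all far above the sulforaphane libraries, of which the third stood above the other pair (log2 fold change -1.85 ± 0.229, edgeR adjusted p = 1.24e-05). OPRD1, the delta opioid receptor, was 1.51 times as high with FSH (log2 fold change -0.59 ± 0.136, edgeR adjusted p = 0.00209), and PLXNC1, the plexin that binds semaphorin 7A, 1.71 times as high (log2 fold change -0.77 ± 0.213, edgeR adjusted p = 0.00718). Both calls were lost with median-ratio factors, and under quantile scaling both signs turned (log2 fold change 0.04 for OPRD1 and 0.05 for PLXNC1). The quantile values rest on log2(FPKM + 1), where differences at such low levels shrink. GPRC5A, an orphan receptor of G protein-coupled receptor class C, had 4.23, 2.91 and 2.85 FPKM with sulforaphane, 3.4, 3.19 and 3.12 FPKM with FSH and 1.77, 1.46 and 1.56 FPKM in control cells. The FSH libraries fell within the sulforaphane range (log2 fold change 0.04 ± 0.166, edgeR adjusted p = 0.867). ASIC1, a proton-gated sodium channel, had a log2 fold change of 0.19 and BOC, a co-receptor for hedgehog ligands, one of -0.08, neither of which passed. A list of genes for G protein-coupled, cyclic AMP and calcium signalling had 19 tested genes, 3 of them higher and 8 lower (median -0.08), with GPRC5A and PRKG2 in the set, and a list of cytoskeleton, adhesion and junction genes had 21, 3 higher and 13 lower (median -0.38), with ITGA2 in the set.

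Of 7 genes of intracellular signalling, 4 were higher with sulforaphane than with FSH and none lower, with a median log2 fold change of 0.44, where 12.9% of all tested genes were higher. With TMM factors 6 of the 7 were higher, where 34.8% of all tested genes were. PRKG2, among the 4, could enter the test only through the sulforaphane libraries. RASGEF1B, an exchange factor for the small GTPase Rap2, had 11.4, 9.94 and 11.9 FPKM with sulforaphane, 2.37, 2.72 and 2.65 FPKM with FSH and 1.77, 1.39 and 1.36 FPKM in control cells. With FSH it stood near control, while every sulforaphane library was several times higher (log2 fold change 2.14 ± 0.122, edgeR adjusted p = 1.61e-08). PRKG2, the membrane-bound cyclic GMP-dependent protein kinase, had 2, 1.75 and 4.79 FPKM with sulforaphane, 0.66, 0.78 and 0.55 FPKM with FSH and 0.32, 0.23 and 0.22 FPKM in control cells. All sulforaphane libraries exceeded all FSH libraries, the third by far (log2 fold change 2.12 ± 0.346, edgeR adjusted p = 0.000131). These are the genes with the largest log2 fold changes toward sulforaphane in the set, and they lie on the same stretch of chromosome 8, RASGEF1B at chr8:135896022-136595051 and PRKG2 at chr8:136754698-136854589, 159647 bases apart with 3 annotated genes starting in between.

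PLEKHM3, a protein with a pleckstrin homology domain, had 3.07, 2.81 and 3.85 FPKM with sulforaphane, 2.48, 2.43 and 2.26 FPKM with FSH and 1.39, 1.47 and 1.74 FPKM in control cells. The separation from FSH was small (log2 fold change 0.44 ± 0.129, edgeR adjusted p = 0.0104). RASSF9, a Ras-association protein of recycling endosomes, was called higher with overlapping libraries (log2 fold change 0.49 ± 0.146, edgeR adjusted p = 0.0108), and the call was lost without the first FSH library (log2 fold change 0.38). SH2B2, an adaptor bound by the activated insulin receptor, had 4.1, 3.67 and 3.74 FPKM with sulforaphane, 3.2, 3.37 and 4.07 FPKM with FSH and 1.8, 1.92 and 1.97 FPKM in control cells. Treated libraries of SH2B2 overlapped and were all above control (log2 fold change 0.11 ± 0.129, edgeR adjusted p = 0.522). TTBK2, a kinase needed to start cilium assembly, had 1.54, 1.66 and 2.36 FPKM with sulforaphane, 1.55, 1.68 and 1.48 FPKM with FSH and 1.12, 0.97 and 1.05 FPKM in control cells. The third sulforaphane library stood above all others (log2 fold change 0.23 ± 0.149, edgeR adjusted p = 0.221). Insulin and PI3K signalling genes on a list numbered 9 tested, none higher and 6 lower with sulforaphane than with FSH (median -1.31), with SH2B2 and PPP1R3B as its members here.

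Of 6 genes for transcription regulators and RNA-binding proteins, 2 were higher with sulforaphane than with FSH and none lower. Of all tested genes 12.9% were higher and 42.8% lower. With median-ratio factors 4 of the 6 were higher, where 42.2% of all tested genes were. HIVEP2, a zinc finger protein that binds kappa B-like enhancers, had 6.84, 7.93 and 6.43 FPKM with sulforaphane, 5.47, 5.55 and 5.83 FPKM with FSH and 3.78, 3.15 and 3.6 FPKM in control cells. Its treated libraries were separate by a small margin (log2 fold change 0.33 ± 0.102, edgeR adjusted p = 0.0131), and the call was lost without the first FSH or the second sulforaphane library. PLAGL1, an imprinted zinc finger gene that restrains proliferation, was also called higher with sulforaphane (log2 fold change 0.27 ± 0.103, edgeR adjusted p = 0.0414) but not in 6 of the 9 fits without 1 library. TRPS1, a GATA-type repressor, had 1.21, 1.37 and 1.42 FPKM with sulforaphane, 1.25, 1.25 and 1.17 FPKM with FSH and 0.75, 0.78 and 0.81 FPKM in control cells. The treated ranges overlapped above control (log2 fold change 0.13 ± 0.107, edgeR adjusted p = 0.353). LOC100524475, annotated as the corepressor transducin-like enhancer protein 1, had 15.4, 18.4 and 12.3 FPKM with sulforaphane, 15.4, 14.9 and 15.7 FPKM with FSH and 10.2, 9.07 and 11.1 FPKM in control cells. Its estimated difference was nil, with a 95% interval of -0.28 to 0.29 (log2 fold change 0.00 ± 0.131, edgeR adjusted p = 0.997). The RNA-binding protein gene RBPMS2 (log2 fold change 0.01) and the dachshund factor DACH1 (-0.29) did not pass, and DACH1 was called lower without the third sulforaphane library (-0.53). Of 24 tested genes on a list of transcription regulators, 3 were higher with sulforaphane than with FSH and 11 lower (median -0.31), with HIVEP2, AHR and TRPS1 in the set.

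Of 10 genes of vesicle traffic, cytoskeleton and cell polarity, 1 was higher with sulforaphane than with FSH and 4 were lower, with a median log2 fold change of -0.17, where 12.9% of all tested genes were higher and 42.8% lower. With median-ratio factors or quantile scaling 4 were higher and 4 lower. Over all 919 tested genes the counts were 388 and 315 with median-ratio factors and 399 and 302 with quantile scaling. SV2C, a glycoprotein of synaptic and secretory vesicles, had 0.73, 0.55 and 0.59 FPKM with sulforaphane, 2.47, 2.98 and 2.69 FPKM with FSH and 0.09, 0.13 and 0.17 FPKM in control cells. All groups were apart, at 4.79 times control with sulforaphane and 20.9 times with FSH (log2 fold change -2.12 ± 0.188, edgeR adjusted p = 5.98e-07). Its summed counts gave 4.72 times control with sulforaphane (exact 95% interval 2.84 to 8.22) and 20.5 times with FSH (13 to 34.5). ADD2, an adducin that caps actin filaments in the membrane skeleton, was 2.27 times as high with FSH (log2 fold change -1.18 ± 0.184, edgeR adjusted p = 8.65e-05), and COBLL1, an actin-binding WH2 repeat protein, 1.73 times as high (log2 fold change -0.79 ± 0.115, edgeR adjusted p = 4.88e-05).

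RAB21, a GTPase of early endosomes that carries integrins, was the one gene of this group called higher with sulforaphane (log2 fold change 0.26 ± 0.0869, edgeR adjusted p = 0.0233), which did not hold in 4 of the 9 fits without 1 library. RAB27B, a GTPase of secretory vesicle docking, had 0.72, 0.71 and 1.79 FPKM with sulforaphane, 1.08, 1.41 and 1.1 FPKM with FSH and 0.62, 0.69 and 0.58 FPKM in control cells. Of the sulforaphane libraries the third alone stood clear of control, since the other pair at 0.72 and 0.71 FPKM was just above the highest control value of 0.69 FPKM (log2 fold change -0.16 ± 0.294, edgeR adjusted p = 0.7). Without that library RAB27B was called lower with sulforaphane (log2 fold change -0.74). DLG5, a scaffold of cell polarity, had 27.1, 26.8 and 29.7 FPKM with sulforaphane, 26.5, 27.9 and 26.5 FPKM with FSH and 17.7, 15.7 and 19.2 FPKM in control cells. Sulforaphane and FSH libraries overlapped (log2 fold change 0.05 ± 0.0891, edgeR adjusted p = 0.691). SHROOM2, which organises actin at apical junctions, had a log2 fold change of -0.18, the dynein subunit gene DYNC1I1 one of -0.03 and the endocytic adaptor gene EPN3 one of -0.08, and none passed; without the third sulforaphane library SHROOM2 was called lower (-0.43). A list of small GTPase and membrane traffic genes had 25 tested genes, 3 higher and 11 lower (median -0.16), and SV2C and RAB27B are its members here.

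In the group of matrix, protease and protein turnover genes, 4 of 6 were lower with sulforaphane than with FSH and none higher (median -0.60), where 42.8% of all tested genes were lower. With TMM factors 3 were lower and 1 higher, with median-ratio factors 1 was lower and 1 higher, and with quantile scaling 1 was lower and 2 were higher. Over all 919 tested genes, in the same order, 327, 315 and 302 were lower and 320, 388 and 399 were higher. ADAMTSL4, a protein of fibrillin microfibrils, had 2.32, 2.05 and 1.89 FPKM with sulforaphane, 3.64, 3.93 and 4.18 FPKM with FSH and 1.52, 1.4 and 1.25 FPKM in control cells. Its sulforaphane libraries sat between control and FSH (log2 fold change -0.90 ± 0.123, edgeR adjusted p = 2.78e-05). MFAP3L, named for its likeness to a microfibril protein, was 1.74 times as high with FSH (log2 fold change -0.80 ± 0.175, edgeR adjusted p = 0.00146). LONRF3, a RING finger protein with a LON protease domain, was 1.53 times as high (log2 fold change -0.61 ± 0.0937, edgeR adjusted p = 7.21e-05). Both calls were lost with median-ratio factors (log2 fold change -0.41 for MFAP3L and -0.23 for LONRF3) and with quantile scaling (-0.14 and -0.29). PHEX, a membrane endopeptidase known from phosphate balance in bone, passed narrowly (log2 fold change -0.58 ± 0.226, edgeR adjusted p = 0.0451) and failed in 8 of the 9 fits that leave out 1 library. MMP16, a membrane-type matrix metalloproteinase, had 0.86, 0.91 and 1.04 FPKM with sulforaphane, 0.98, 1 and 1.03 FPKM with FSH and 0.63, 0.46 and 0.6 FPKM in control cells. Its treated libraries lay close together (log2 fold change -0.10 ± 0.132, edgeR adjusted p = 0.581). FNDC3A, a fibronectin type III domain protein, had 6.83, 7.96 and 10.5 FPKM with sulforaphane, 8.35, 8.96 and 7.97 FPKM with FSH and 5.51, 5.47 and 5.17 FPKM in control cells. Means with sulforaphane and FSH were almost equal (log2 fold change -0.01 ± 0.132, edgeR adjusted p = 0.969), and without the third sulforaphane library FNDC3A was called lower (log2 fold change -0.20). On a list of matrix, protease and inhibitor genes 23 were tested, of which 1 was higher and 16 were lower (median -1.08), with MMP16 in the set.

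Among the other named genes, MRO, maestro, a gene expressed in the developing gonad of mouse, had 0.14, 0.12 and 0.57 FPKM with sulforaphane, 1.38, 1.75 and 2.06 FPKM with FSH and 0.12, 0.16 and 0.02 FPKM in control cells. It was counted 6, 8 and 18 times with sulforaphane, 44, 55 and 70 times with FSH and 2, 3 and 1 times in control cells, so the sulforaphane and control FPKM overlapped while the counts did not. The FSH level was above both (log2 fold change -2.33 ± 0.333, edgeR adjusted p = 4.04e-05). The transcript length implied by the ratio of count to FPKM ranged between libraries for MRO from 0.901 to 3.53 kb, and its ratio to control from summed counts was 5.63 with sulforaphane (exact 95% interval 2.32 to 16.5) and 28.7 with FSH (12.9 to 79.3), against 2.77 with sulforaphane and 17.3 with FSH from FPKM. For the other 79 genes the ratios from counts and from FPKM differed by at most 0.13 on the log2 scale. C15H2orf72, a gene without a known function, had 1.68, 1.29 and 1.67 FPKM with sulforaphane, 2.18, 1.7 and 1.79 FPKM with FSH and 0.26, 0.49 and 0.46 FPKM in control cells. FSH libraries were above sulforaphane libraries by a margin that did not pass (log2 fold change -0.29 ± 0.204, edgeR adjusted p = 0.27). WDR54, a WD repeat protein, was at 0.23 and KIAA1549, a membrane protein, at -0.06 on the log2 scale, and neither passed.

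Of 13 LOC entries with fractional counts, 3 are described above by their annotated roles (LOC100526118, LOC110255332 and LOC100524475). The other 10 carried fractional counts in 8 or 9 libraries, as when reads are divided between loci. Of these, 9 were lower with sulforaphane than with FSH, where 42.8% of all tested genes were lower. Of the 10, 8 are described in the file as uncharacterized, LOC110258732 as olfactory receptor 2B11-like and LOC110257759 as like a UPF0329 protein. LOC110257759 (chrX:81543472-81545852) had 110.5, 118 and 114 FPKM with sulforaphane, 257, 258 and 254 FPKM with FSH and 42.4, 46.2 and 42.1 FPKM in control cells. Each group was tight and apart from the others (log2 fold change -1.17 ± 0.072, edgeR adjusted p = 2.72e-08). LOC110255823 (chr11:29088001-29089876) had 15.7, 17.5 and 14.8 FPKM with sulforaphane, 38.4, 37.4 and 36.9 FPKM with FSH and 5.21, 6.3 and 5.63 FPKM in control cells. It repeated the pattern, highest with FSH and lowest in control cells (log2 fold change -1.23 ± 0.095, edgeR adjusted p = 1.77e-07). LOC110258732, on an unplaced scaffold, had 0.96, 1.53 and 1.23 FPKM with sulforaphane, 2.74, 3.07 and 2.23 FPKM with FSH and 0.43, 0.22 and 0.62 FPKM in control cells. It had the lowest levels of those called (log2 fold change -1.10 ± 0.25, edgeR adjusted p = 0.00195), and its call was lost under quantile scaling (log2 fold change -0.29).

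The ratio of FSH to sulforaphane means was 1.79 to 2.35 in 9 of the 10 loci, although these lie on 7 named chromosomes and an unplaced scaffold. LOC102158723 was the exception at 0.992, with 1.13 to 2.03 FPKM in the treated libraries (log2 fold change 0.03 ± 0.274, edgeR adjusted p = 0.941). LOC102160003 and LOC110257408 on chromosome 17 overlap by 14 bases, and LOC106505804 lies 50223 bases from BOC on chromosome 13. Divided reads can be shared between loci, so the 10 may not be independent, and whether they hold reads of one another was not tested. Among the 56 tested genes of the set with whole counts only, 11 were higher with sulforaphane than with FSH, 15 were lower and 30 did not pass. In a fit of all 790 tested genes with whole counts, 103 were higher and 330 lower. Among the 21 with a fractional count, 3 were higher, 12 lower and 6 did not pass. The share over all tested genes with a fractional count is not given here, so nothing is read from that contrast.

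**Figure D4:**
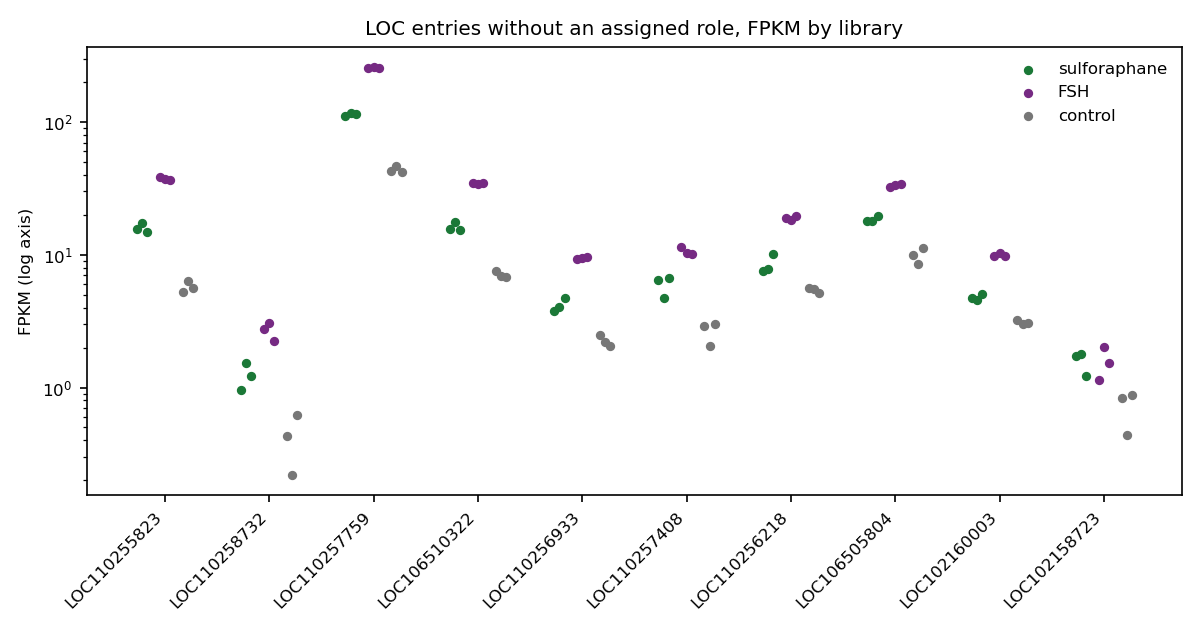
FPKM in each library (log axis) of 10 of the 13 LOC entries with fractional counts, those without an assigned role, with sulforaphane in green, FSH in purple and control in grey. In 9 loci the FSH libraries lie above the sulforaphane libraries, which lie above control; in LOC102158723 the treated libraries overlap.

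Several lists held no gene of the set, in part because of the exclusions by symbol. Beside the counts below, 12.9% of all tested genes were higher with sulforaphane than with FSH and 42.8% lower. On the list of FSH and cyclic AMP response genes 2 tested genes met the thresholds and were left out by symbol. On that of TGF-beta, BMP, Wnt and Notch signalling genes 1 was. FSH and cyclic AMP response genes had 17 tested, 2 of them higher with sulforaphane than with FSH and 11 lower (median -1.5). TGF-beta, BMP, Wnt and Notch signalling genes had 18 tested, 3 higher and 10 lower (median -0.48), and MAPK signalling and feedback genes 12, 2 higher and 5 lower (median -0.05). Lipid handling genes had 4 tested, 2 in each direction (median 0.43), ubiquitin and chaperone genes 7, 2 in each direction (median 0.05), lysosome and autophagy genes 5, none higher and 1 lower (median 0.01), and circadian clock genes 2, both higher (median 1.06). In steroid synthesis and metabolism 4 genes were tested and all were lower (median -1.95), AKR1C1 being its untested member here, and in the list of growth arrest, p53 target and cell cycle genes 17 were tested, 2 higher and 11 lower (median -0.79), with SAT1 in the set. Of the file's pathway annotations, the wide class of metabolic pathways held the most genes of the set, 8 of the 77 tested. It also held 78 of all 919 tested genes, and nothing is read from that count. The 8 were MPI, CDA, RIMKLA, LOC110255332, CBS, SAT1, CTH and AK4. Of the 78, 11 were higher and 34 lower with sulforaphane than with FSH, where 12.9% of all tested genes were higher and 42.8% lower.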

How the data were processed

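Poly(A)-enriched RNA of the 9 libraries was sequenced on an Illumina HiSeq instrument by a protocol that names no strand-specific step, per the labels' protocols, so overlapping genes on opposite strands cannot be told apart. The submitters' processing notes list the tools HISAT2, Bowtie2 2.2.8, fastp and StringTie 1.3.1, with edgeR, DESeq2 and genome build Sscrofa11.1, but not what each was used for. The deposited table gives FPKM, a level per kilobase of transcript scaled to the depth of the whole library, and an estimated count for each gene and library, per the file headers. The sources used here do not give how the authors chose the 1081 rows. Counts were whole in most rows and fractional in 143. Reads divided between loci would give such fractions, but the sources used here do not state how they arose. Of the rows, 1053 carried an NCBI gene identifier found in the Sscrofa11.1 gene table, among them 79 of the 80 genes described, and names and positions come from it. Columns of other series numbered 0.

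The genes described, their grouping by role, the gene lists and the tests were chosen with earlier results of these data known. Genes were selected on FPKM means. Estimated counts were rounded and fitted in edgeR 4.0.16 (R 4.3.3) with all 9 libraries in 1 quasi-likelihood fit of 3 group means. Library sizes were depths estimated by dividing counts by FPKM: 354 well-covered genes (100 counts, 5 FPKM) gave relative depth, and 10 of 346 genes, whose quotient over annotated gene span came within 0.1% of the maximum, gave its absolute size. Genes with 1 FPKM in at least 3 libraries were tested (919), with Benjamini-Hochberg adjustment over them and a threshold of 0.05. Standard errors follow from the fold change and the F statistic of the test, and 95% intervals use the fit's degrees of freedom. Variation between libraries of a group, which may be technical, came to a coefficient of 10.9% (common dispersion 0.0118). Sulforaphane and FSH share the control libraries in their comparisons with control. Intervals on ratios of summed counts are exact binomial ones, given for genes with at most 30 control counts in all, and cover counting error only. The fit was tested on simulated data.

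Genes with values in every library are those with the largest smaller ratio to control (10), the largest differences between the treatments without overlap (8 in each direction), the highest treated levels (6), the smallest differences at 5 FPKM or more (4), the best expressed in each of 19 lists and those nearest the threshold; others were chosen after their values were seen. Of the 80 genes, 2 enter the counts and medians and are not reported singly here. Alternatives were TMM, median-ratio and quantile scaling, limma 3.58.1 on log2(FPKM + 1) with pseudocounts of 0.1 and 5 beside it, DESeq2 1.42.0, other filters, fits of the treated libraries alone, a replicate block, and each library left out. Promoter and protein sequences are not used here.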

Additional observations from a re-analysis of the deposited data

How the results depend on the processing

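Log2 fold changes of sulforaphane against FSH numbered 1632 (77 genes and 22 alternatives to the depth-scaled edgeR fit, some of which leave genes out). Of these, 1473 kept their side of the threshold, 78 kept the direction but no longer passed, and 61 came to pass in the same direction. A further 20 changed sign and passed in the depth-scaled fit or in the alternative. Changes of sign in genes that passed in neither fit are counted among the 1473. The 20 were FNDC3A (0.28) and ARRDC4 (0.27) with TMM factors and those that follow. With median-ratio factors they were FNDC3A (0.36), ARRDC4 (0.34), DYNC1I1 (0.35), KIAA1549 (0.32), BOC (0.30) and EPN3 (0.29). With quantile scaling they were FNDC3A (0.26), LOC100510917 (0.35), DYNC1I1 (0.37), KIAA1549 (0.35), BOC (0.25), MMP16 (0.38), RIMKLA (0.35), SHROOM2 (0.30), PHEX (0.15), OPRD1 (0.04), APLN (0.02) and PLXNC1 (0.05). TMM and median-ratio factors moved all genes by about the same amount, and the median over all tested genes went from -0.18 to 0.12 and 0.19. They and the quantile scaling came from the 919 tested rows alone. Of these, only 4 (sulforaphane) and 19 (FSH) were called neither way against control. Quantile values are limma estimates on log2(FPKM + 1), so their sizes do not compare directly with edgeR's. Which scale is right was not tested. The counts of genes of the set higher and lower with sulforaphane than with FSH (14 and 27) became 28 and 24 with TMM factors, 38 and 21 with median-ratio factors and 39 and 20 with quantile scaling in limma, where the counts over all tested genes (119 and 393) became 320 and 327, 388 and 315, and 399 and 302. At a mean of 5 FPKM or more they were 9 and 15 of 36 genes of the set and 79 and 213 of 489 tested, because fewer genes were tested. With whole counts only, 11 of 56 genes of the set were higher and 15 lower (103 and 330 of 790 tested). With an absolute log2 fold change of at least 1 required as well in the depth-scaled fit, the counts were 3 and 17 (46 and 254 of all tested). Leaving out 1 library gave 8 to 17 higher and 25 to 34 lower genes of the set, and 97 to 134 higher and 373 to 459 lower over all tested. The set itself, 80 genes, numbered 194 with FPKM rescaled by TMM factors (all 80 kept), 107 with median-ratio factors (75 kept), 66 to 91 when a library was left out, 76 with medians in place of means (65 kept), 27 at 2-fold, 41 with a mean of 5 FPKM and 59 with whole counts only. DESeq2, limma with each pseudocount, no filter and the fit of the treated libraries alone left each of the 4 counts within 1.5 times.

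The labels do not tell if same-numbered libraries shared a donor, dish or batch, and weak correlations between them cannot settle it. Correlations of same-numbered deviations from the group means were 0.116, -0.0671 and 0.0284 between sulforaphane and FSH. They were -0.0093, -0.181 and -0.0581 between sulforaphane and control, and 0.051, 0.211 and 0.0919 between FSH and control. A fit with the replicate block gave 12 genes of the set higher and 27 lower with sulforaphane than with FSH (112 and 393 over all tested), and TMEM135 (adjusted p = 0.0599, edgeR) and PLAGL1 (0.0504) no longer passed. Low counts limit AKR1C1, CDA, RSPO2 and MRO, most of all in control libraries.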
